A study of Homo sapiens with 6 samples.

Results

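Integrins, laminins and collagens are the receptors, the basement membrane polymers and the structural proteins through which an epithelial cell holds and crosses its matrix. Their genes were followed here on 2 deposited lists, of high and of low expression, from a study of SiHa. SiHa is an established line of cervical squamous carcinoma cells with integrated human papillomavirus DNA. Members were selected by name, as every listed symbol that begins with ITGA, ITGB, LAMA, LAMB, LAMC or COL followed by the number and chain of a collagen. This gave 40 of 8946 listed symbols, 17 high and 23 low. Of these, 33 encode integrin, laminin or collagen subunits, 5 are antisense genes named after a subunit and 2 are other genes that share the prefix. Subunits on neither list were taken from a written family list of 81 genes, so that the partners of each listed chain could be given.

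The study sequenced RNA of a migrated and a non-migrated fraction of SiHa cells, 3 libraries each, taken from transwell inserts 10 hours after seeding. A transwell insert has a porous membrane that cells can cross. Both fractions were grown in DMEM with FCS, received no other treatment in the labels, and were scraped and pooled before RNA extraction. SiHa is 1 line, so nothing here describes a second tumour. Assigned fragments per library ranged from 18226280 to 33466924. The table behind those totals names its 26006 loci by assembly IDs, and 0 of its rows carry a name of an integrin, laminin or collagen gene. Fold changes between migrated and non-migrated cells were therefore not computed for any gene below. The lists hold symbols and hg19 positions in genome order, with no expression value, rank or sample. The sources used here do not give the rule that made them. Membership was read as a level of expression, not as a difference between the fractions. A gene on neither list may have an intermediate level or may have been left out for another reason.

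Integrins are heterodimers of an alpha and a beta chain that span the membrane and bind laminin, collagen, fibronectin and other ligands outside the cell and actin-linked adaptors inside it. Laminins are trimers of an alpha, a beta and a gamma chain that polymerise into the sheet of the basement membrane. Collagens are triple helices, of 1 to 3 kinds of chain, that form fibrils, networks, anchoring fibrils or membrane proteins. In squamous epithelium the basal cells are anchored through hemidesmosomes, in which the integrin pair of ITGA6 and ITGB4 binds laminin. Many chains of these families reach the cell surface or the matrix only when joined to a partner, so partners are described together.

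As a whole the subunit genes were spread over the lists much as protein coding genes are. Of 81 subunits, 16 (19.8%) were high, 17 (21.0%) low and 48 (59.3%) on neither list, beside 22.3%, 18.8% and 58.8% of 20056 RefSeq protein coding genes. Of all symbols on exactly 1 list, 50.6% were high and 49.4% low. Of listed protein coding genes 54.2% were high, and of listed symbols without OR, KRTAP, DEF and LINC names (olfactory receptors, keratin associated proteins, defensins and long noncoding RNAs) 54.4% were high. Of the 33 listed subunits 48.5% were high, which is near these shares. Within that total laminins lay more on the high list and collagens more on the low list. Integrins lay near the protein coding shares, at 23.1% high, 15.4% low and 61.5% on neither list. Laminins gave 5 of 11 high and 1 low, integrins 6 of 26 high and 4 low, and collagens 5 of 44 high and 12 low. Of listed genes, high ones made up 5 of 6 laminins (83.3%), 6 of 10 integrins and 5 of 17 collagens (29.4%). These counts are small, and no test was made of the difference between families. The lists carry no samples, so no replicate error can be attached to a gene's place.

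**Figure D1:**
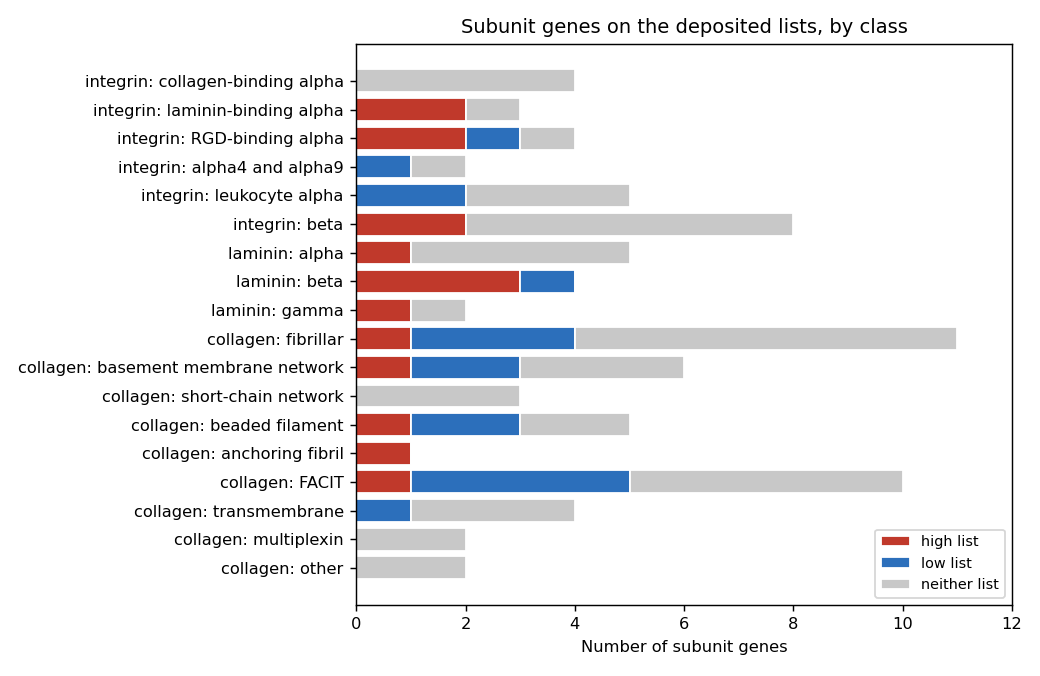
Number of subunit genes (horizontal axis) in each class of integrin, laminin and collagen (vertical axis) that stood on the high list (red), the low list (blue) or neither (grey). Laminin beta is the class with the most high genes, 3 of 4, and FACIT collagens, which sit on the surface of fibrils, hold 4 of the 12 low collagens.

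Promoters are shown first for the genes that the rest of the account turns on. They give a high and a low laminin beta gene that lie side by side, a high and a low integrin alpha gene, and the stretch between the start sites of COL4A1 and COL4A2, both low. Each is printed 5′ to 3′ on the strand of the gene (the last on that of COL4A2), from RefSeq on GRCh38.p14, which is another build than the hg19 of the lists. Capitals mark each C followed by G, the CpG dinucleotide that can be methylated and that is dense in CpG islands.
LAMB1, high, chr7:108003162-108003411, minus strand, 250 bases before the start, 28 CpG: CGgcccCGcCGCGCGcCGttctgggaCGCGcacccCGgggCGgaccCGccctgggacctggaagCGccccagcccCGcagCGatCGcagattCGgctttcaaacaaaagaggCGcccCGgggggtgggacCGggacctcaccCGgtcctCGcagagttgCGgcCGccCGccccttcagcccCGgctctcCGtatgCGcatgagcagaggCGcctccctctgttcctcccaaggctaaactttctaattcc
LAMB4, low, chr7:108130362-108130611, minus strand, 250 bases before the start, 1 CpG: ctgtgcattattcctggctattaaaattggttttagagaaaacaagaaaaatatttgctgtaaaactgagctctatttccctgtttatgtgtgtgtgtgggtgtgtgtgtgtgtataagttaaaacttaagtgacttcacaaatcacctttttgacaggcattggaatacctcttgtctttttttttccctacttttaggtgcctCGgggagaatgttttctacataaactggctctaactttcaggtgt
ITGA5, high, chr12:54419267-54419516, minus strand, 250 bases before the start, 12 CpG: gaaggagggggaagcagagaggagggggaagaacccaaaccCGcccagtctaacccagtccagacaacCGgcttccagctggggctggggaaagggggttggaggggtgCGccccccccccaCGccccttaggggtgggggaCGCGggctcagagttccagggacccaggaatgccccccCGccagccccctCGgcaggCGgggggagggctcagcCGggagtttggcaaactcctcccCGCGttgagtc
ITGA4, low, chr2:181457136-181457385, plus strand, 250 bases before the start, 25 CpG: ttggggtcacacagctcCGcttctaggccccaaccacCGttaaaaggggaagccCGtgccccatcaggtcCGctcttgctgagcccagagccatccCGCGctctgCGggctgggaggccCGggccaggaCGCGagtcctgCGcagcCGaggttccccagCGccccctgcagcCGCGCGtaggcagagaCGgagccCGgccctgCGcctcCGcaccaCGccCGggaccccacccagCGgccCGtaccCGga
COL4A1-COL4A2, low, chr13:110307158-110307283, plus strand, the 126 bases between both start sites, 20 CpG: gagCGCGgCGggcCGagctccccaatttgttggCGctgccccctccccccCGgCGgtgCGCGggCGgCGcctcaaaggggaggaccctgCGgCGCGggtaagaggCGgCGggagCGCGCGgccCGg
The laminin pair differs in the way the whole lists do, the integrin pair the other way round, and the collagen stretch is dense in CpG although both of its genes were low. For its C and G content, ITGA5 has the fewest CpG of the 5 high integrins with a window, and ITGA4 the more of the 2 low ones. LAMB1 has the most of the 5 high laminins. These pairs are thus extreme examples and not typical of their families.

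Among integrin beta chains, ITGB1 and ITGB5 were high and 0 were low. ITGB1 (hg19 chromosome 10, 33189247 to 33294720) encodes the chain shared by most integrins of adherent cells. ITGB5 (chromosome 3, 124480795 to 124606144) pairs with ITGAV to bind vitronectin. The remaining 6 were on neither list. They are ITGB2 of leukocytes, ITGB3 of platelets and endothelium, ITGB4 of hemidesmosomes, ITGB6 of epithelia, ITGB7 of lymphocytes and ITGB8, which with ITGAV binds latent TGF-beta.

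Of 18 alpha chains 4 were high and 4 low. The high chains were the laminin receptors ITGA3 (hg19 chromosome 17, 48133339 to 48167848) and ITGA6 (chromosome 2, 173292082 to 173371181), the fibronectin receptor ITGA5 (chromosome 12, 54789045 to 54813244) and ITGAV (chromosome 2, 187454790 to 187545628), whose pairs bind vitronectin and other ligands with an RGD sequence. The low chains were ITGA4 (chromosome 2, 182321619 to 182400914), which binds VCAM1 and a site of fibronectin, and ITGA8 (chromosome 10, 15555948 to 15762124), which binds nephronectin. The leukocyte chains ITGAL (chromosome 16, 30483983 to 30534505) and ITGAX (chromosome 16, 31366509 to 31394318) were low as well. All 4 collagen-binding chains, ITGA1, ITGA2, ITGA10 and ITGA11, were on neither list. So were ITGA7, ITGA9 and the platelet chain ITGA2B, and ITGAD, ITGAE and ITGAM of leukocytes. Alpha chains on the high list were thus those of laminin and RGD receptors, at 4 of the 7 chains of those classes, while ITGA8 was the 1 chain of them on the low list.

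By receptor, 5 of 24 known pairs had both chains on the high list. They were ITGA3, ITGA5, ITGA6 and ITGAV with ITGB1, and ITGAV with ITGB5. A further 10 pairs joined a high chain to one on neither list. Of these, 6 owe the high chain to ITGB1, 3 to ITGAV (with ITGB3, ITGB6 and ITGB8) and 1 to ITGA6 (with ITGB4). ITGB1 was paired with a low chain in 2 receptors, with ITGA4 and with ITGA8. In 3 pairs a low chain stood with a chain on neither list (ITGAL and ITGAX with ITGB2, ITGA4 with ITGB7), and in 4 both chains were on neither. ITGB1 takes part in 12 of the 24 pairs and ITGAV in 5, so pairs share chains and are not separate observations. Of single protein coding genes 22.3% are high, 18.8% low and 58.8% on neither list. No other pairs of genes were counted for comparison. By ligand, 2 of 4 laminin receptors and 3 of 8 RGD receptors had both chains high. In each of the 4 collagen receptors ITGB1 was high and the alpha chain was on neither list.

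**Figure D2:**
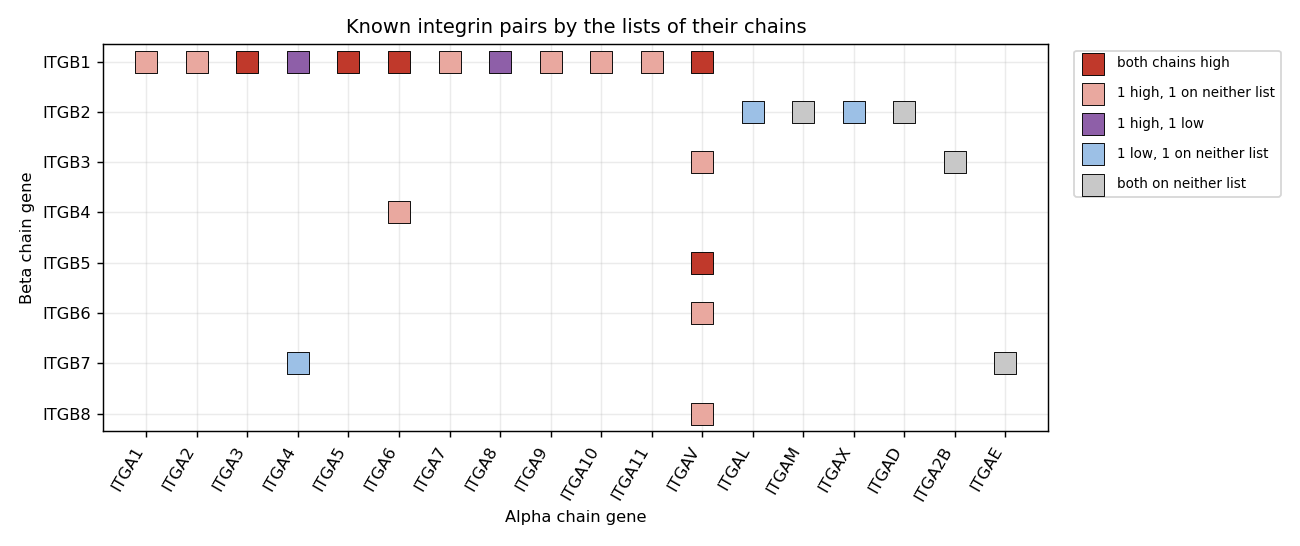
Known integrin pairs, with the alpha chain gene on the horizontal axis and the beta chain gene on the vertical axis, coloured by the lists of both chains. The 5 pairs with both chains high (dark red) lie in the rows of ITGB1 and ITGB5, and the row of ITGB2, which serves leukocytes, holds 2 pairs with a low chain and 2 with both chains on neither list.

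Laminin chains were high in each of the 3 chain classes. The high chains were LAMA5 (hg19 chromosome 20, 60884121 to 60942368), LAMB1 (chromosome 7, 107564248 to 107643700), LAMB2 (chromosome 3, 49158547 to 49170551), LAMB3 (chromosome 1, 209788220 to 209825811) and LAMC1 (chromosome 1, 182992597 to 183114727). LAMB4 (chromosome 7, 107663993 to 107770801) was low. Neither LAMB4 nor the high chain LAMB3 is in any of the trimers considered. LAMA1 to LAMA4 and LAMC3 were on neither list. Of 13 trimers considered, 2 had all chains high, laminin-511 (LAMA5, LAMB1, LAMC1) and laminin-521 (LAMA5, LAMB2, LAMC1), the broadly distributed laminins of adult basement membranes. Another 9 had 2 high chains and 2 had 1. In 10 of the 13 both the beta and the gamma chain were high, and in 8 of these the alpha chain was on neither list. All 10 hold LAMC1 with LAMB1 or LAMB2, so trimers share chains and are not separate observations. They are to be read beside the 22.3% of protein coding genes that are high and the 58.8% on neither list. In the hemidesmosome receptor ITGA6 was high and ITGB4 on neither list. Of collagens at the same junction, COL7A1 of the anchoring fibrils was high and COL17A1 was on neither list.

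**Figure D3:**
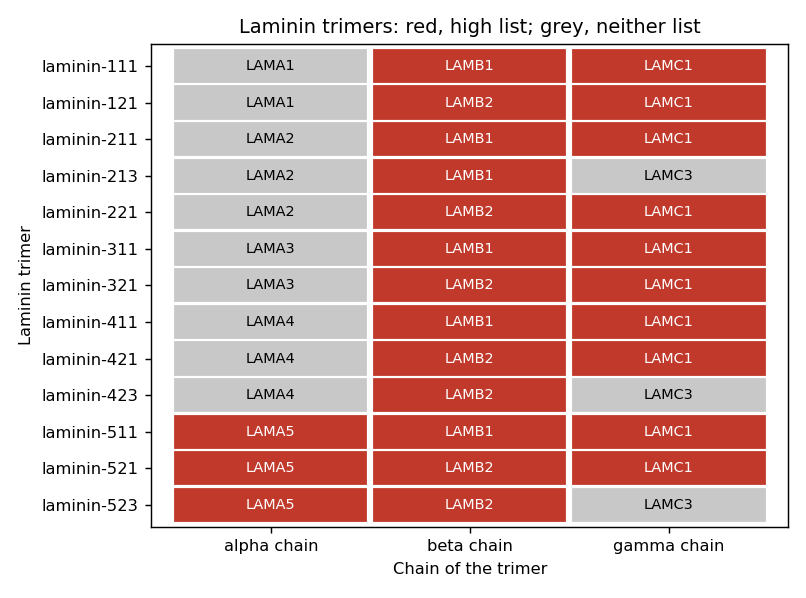
The 13 laminin trimers (vertical axis) with their alpha, beta and gamma chain genes (horizontal axis), in red where the gene was on the high list and in grey where it was on neither. Laminin-511 and laminin-521 are red throughout, and no chain of the 13 trimers was on the low list.

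Collagen genes on the high list came from 5 different classes, 1 gene each. COL5A1 (hg19 chromosome 9, 137533620 to 137736686) encodes a fibrillar chain that starts the assembly of fibrils. COL4A5 (chromosome X, 107683112 to 107940775) encodes a chain of the basement membrane network. COL6A1 (chromosome 21, 47401651 to 47424964) encodes a chain of beaded filaments, which link cells to the matrix around them. COL7A1 (chromosome 3, 48601506 to 48632700) forms the anchoring fibrils under stratified epithelium. COL12A1 (chromosome 6, 75794042 to 75915767) is a FACIT, a collagen that binds the surface of fibrils. The other 3 classes, and the chains COL26A1 and COL28A1, had 0 high genes.

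Low collagens were found among fibrillar, network, beaded filament, FACIT and transmembrane chains. The fibrillar genes were COL1A2 (hg19 chromosome 7, 94023873 to 94060544), the partner of COL1A1 in the collagen of dermis and bone, COL11A1 (chromosome 1, 103342023 to 103574052) of cartilage and COL24A1 (chromosome 1, 86194916 to 86622626). The network genes were COL4A1 (chromosome 13, 110801311 to 110959496) and COL4A2 (chromosome 13, 110958159 to 111165374), which form the network of nearly all basement membranes. The beaded filament genes were COL6A3 (chromosome 2, 238232655 to 238323018) and COL6A5 (chromosome 3, 130064359 to 130203688). FACIT genes gave COL9A1 (chromosome 6, 70924764 to 71012786) of cartilage, COL19A1 (chromosome 6, 70576463 to 70919679), COL21A1 (chromosome 6, 55921388 to 56258892) and COL22A1 (chromosome 8, 139600478 to 139926236). COL25A1 (chromosome 4, 109734855 to 110223813), a transmembrane collagen of neurons, was the 1 low gene of its class. The other 27 collagens were on neither list, with COL1A1, COL3A1 and COL5A2 among the fibrillar and COL6A2 among the beaded filament chains.

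Chains that build the same collagen molecule were set side by side. Of 10 molecules made from more than 1 chain gene, 0 had all chains high and 1 had all chains low, the basement membrane molecule of COL4A1 and COL4A2. Most protein coding genes are on neither list, so a low count of such molecules is not particular to collagens. The network molecules of COL4A3, COL4A4 and COL4A5, and of COL4A5 and COL4A6, each had COL4A5 high and the other chains on neither list. Type V collagen had COL5A1 high and its usual partner COL5A2 on neither list, and COL5A3 was on neither as well. Type I had COL1A2 low and COL1A1 on neither list. Type VI was the 1 molecule with chains on opposite lists, COL6A1 high and COL6A3 low, with COL6A2 on neither. Of the 11 molecules considered that are made from 1 chain gene, 2 were high (COL7A1 and COL12A1), 0 low and the rest on neither list. Other types made from 1 chain gene were not among these molecules. Of those, COL19A1, COL21A1, COL22A1, COL24A1 and COL25A1 were low. COL20A1, COL23A1, COL26A1, COL27A1 and COL28A1 were on neither list.

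Chains on opposite lists share the repeat that makes them collagens, a triplet that starts with glycine. This can be seen in the coding sequence, shown for the first 18 codons of the longest unbroken run of the repeat in 2 fibrillar and 2 network chains, with glycine codons in capitals (GENCODE 29 transcripts with the longest coding sequence).
COL5A1, high, codons 559 to 576: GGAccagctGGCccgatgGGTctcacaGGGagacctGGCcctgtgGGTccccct
COL11A1, low, codons 541 to 558: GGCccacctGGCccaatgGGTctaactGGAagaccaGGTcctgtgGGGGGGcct
COL4A5, high, codons 1249 to 1266: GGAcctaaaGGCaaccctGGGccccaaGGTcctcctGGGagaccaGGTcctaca
COL4A1, low, codons 43 to 60: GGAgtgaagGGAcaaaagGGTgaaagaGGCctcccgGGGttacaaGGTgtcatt
The longest run was 338 triplets in both COL5A1 and COL11A1, and 42 in COL4A5 beside 40 in COL4A1, since network chains carry interruptions in the repeat. COL11A1 has a 7th glycine codon in the stretch shown, within a triplet. Over all chains, runs of at least 6 triplets made up a median of 47.3% of residues in the 5 high collagens (7.64% in COL12A1 to 78.8% in COL4A5). The median was 60.2% in the 12 low collagens (10.4% in COL6A3 to 78.6% in COL4A1) and 61.0% in the 27 on neither list. The ranges overlap over most of their length.

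Low members had longer gene spans than most of the low list, though ITGAX (27.8 kb) and COL1A2 (36.7 kb) lay within its middle 50%. Listed spans had a median of 158 kb in the 17 low subunits (27.8 kb in ITGAX to 489 kb in COL25A1), beside 12.4 kb over the 3811 protein coding rows of that list. All 17 were longer than that median. The 16 high subunits had a median of 79.3 kb (12 kb in LAMB2 to 258 kb in COL4A5), beside 33.3 kb over the 4479 protein coding rows of the high list, and 12 of 16 lay above it. Among collagens the median was 220 kb for the 12 low and 122 kb for the 5 high genes. The low collagens did not have more exons, with a median of 49.5 (30 to 67) against 66.0 (35 to 118) in the high ones. Low integrins had a median span of 64.9 kb (4 genes) and high integrins 85.0 kb (6 genes), so the order seen in collagens was not that of integrins. Groups overlapped in both families.

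**Figure D4:**
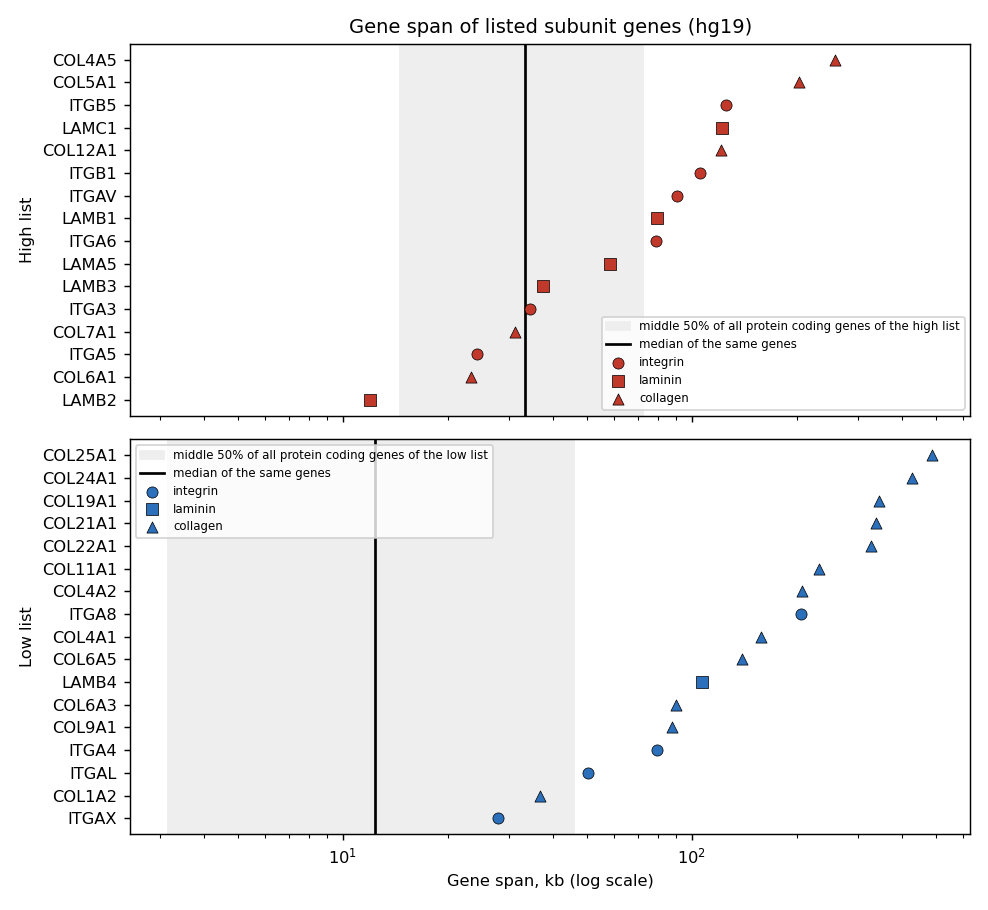
Gene span in kb (horizontal axis, log scale) of the 16 high (upper panel) and 17 low (lower panel) subunit genes, 1 per line. The grey band holds the middle 50% and the black line the median of all protein coding genes of the same list. Every low subunit lies to the right of the low list's median of 12.4 kb.

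Promoters of high and low members had like CpG content, unlike those of the lists they came from. RefSeq windows matched 58 of the 81 subunits and 26 of the 33 listed ones. ITGA3, COL6A1, ITGAL, ITGAX, COL1A2, COL6A5 and COL22A1 had none. The CpG ratio is the observed number of CpG over that expected from the C and G content of the 250 bases before the start farthest 5′. Its median was 0.581 in 14 high subunits (0.315 in LAMB3 to 0.947 in COL12A1) and 0.552 in 12 low subunits (0.123 in LAMB4 to 1.07 in COL25A1). Over all protein coding genes of the lists the medians were 0.862 (3817 high) and 0.294 (2899 low). Laminins had medians of 0.752 (5 high) and 0.123 (1 low), and collagens 0.674 (4 high) and 0.441 (9 low), in the order of the lists. Integrins had the other order, at 0.520 (5 high) and 0.717 (2 low). For the 32 subunits on neither list with a window the median was 0.547, beside 0.737 for all such protein coding genes. High members lay mostly below their list's median, with 2 of 14 above it (LAMB1 at 0.924 and COL12A1 at 0.947), and low members mostly above theirs, with 8 of 12 above it. With the start of highest ratio in place of the one farthest 5′, the medians were 0.788 and 0.637, beside 0.894 and 0.320 over the lists. For genes with several starts the value thus depends on which start these cells use, which the files do not show.

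A ratio of at least 0.6, a usual bound for a CpG island, was reached by 6 of 14 high subunits (42.9%) and by 6 of 12 low subunits. In the whole lists it was reached by 87.8% of high and 25.3% of low genes. The low genes that reached it were COL25A1 (1.07), COL4A2 (1.04), COL4A1 (1.01), ITGA4 (0.770), COL24A1 (0.733) and ITGA8 (0.663). The start sites of COL4A1 and COL4A2 are 126 bases apart and their windows overlap by the same stretch, so these 2 values are not separate. The high genes below the bound were LAMB3 (0.315), ITGA5 (0.395), COL7A1 (0.493), ITGA6 (0.496), COL4A5 (0.501), ITGB5 (0.520), LAMB2 (0.564) and ITGAV (0.598). With the start of highest ratio, ITGA6 (0.962) and ITGB5 (0.982) passed the bound among high genes and COL21A1 (0.610) among low genes. The counts were then 8 of 14 high and 7 of 12 low, beside 93.8% and 28.4% of the lists. By GC share alone the high members did not fall below their list, at a median of 67.0% against 65.6%, so they held fewer CpG for their content of C and G. Low members had a median GC share of 64.2% against 52.0%.

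**Figure D5:**
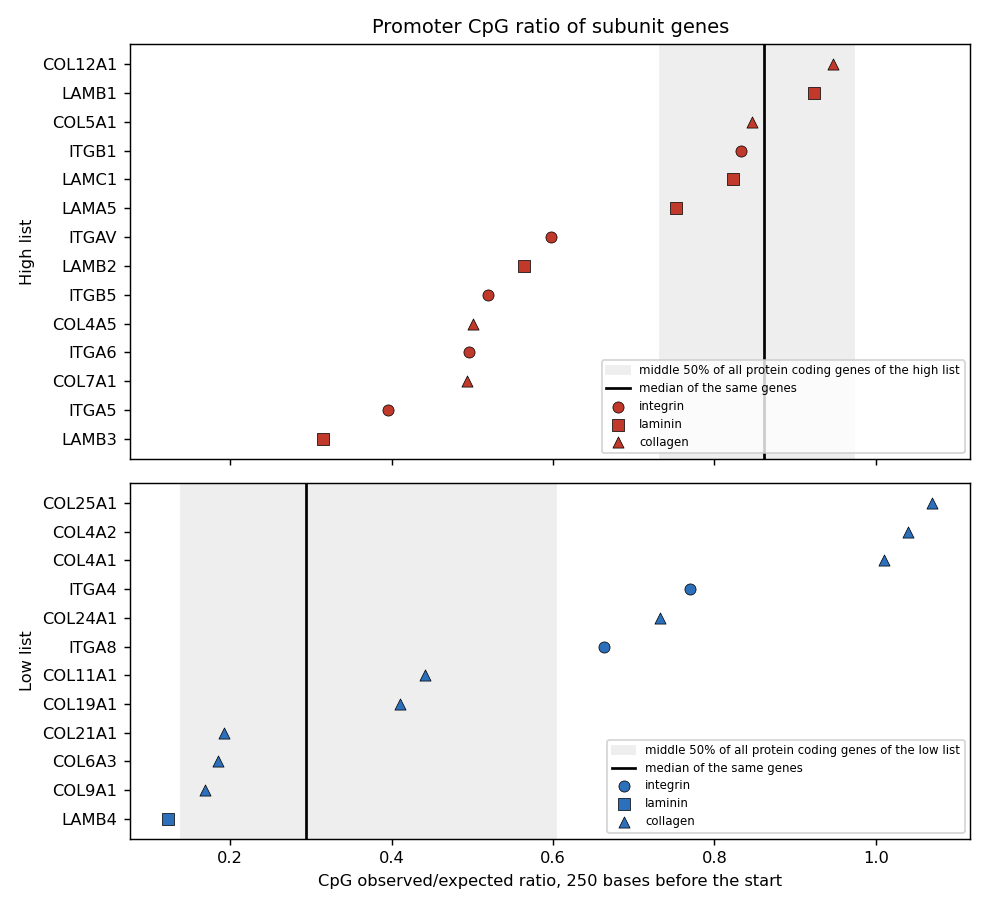
CpG ratio (horizontal axis, observed over expected CpG in the 250 bases before the start) of the 14 high (upper panel) and 12 low (lower panel) subunit genes with a RefSeq window, 1 per line. The grey band holds the middle 50% and the black line the median of all protein coding genes of the same list, 0.862 for high and 0.294 for low. COL25A1, COL4A2 and COL4A1 of the low list have higher ratios than any member of the high list.

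The windows were also searched on both strands for 4 short motifs that do not overlap one another. GGGCGG, the GC box bound by Sp1, occurred in 11 of 14 high and 4 of 12 low subunit windows, and in 55.8% of all protein coding promoters (71.1% of high, 29.1% of low). All 5 high laminins held it. TATAAA occurred in ITGA6 and COL7A1 among the high and in 0 of the low members, and in 9.35% of all promoters. TGANTCA, the AP-1 motif, occurred in 0 listed members and in 5.0% of all promoters. GGAATG, the TEAD motif, occurred in ITGA5, ITGB1 and COL12A1, in 0 low members, and in 10.1% of all promoters. These are matches of letters in a short window and do not show binding.

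Several family members lie next to each other in the genome. Of all protein coding genes 58.8% are on neither list, so pairs that hold such a gene are to be read beside that share. In GENCODE 29, 10 pairs of subunits are adjacent among protein coding genes. Both genes were low in 2 of them, COL4A1 with COL4A2 (head to head) and COL19A1 with COL9A1 (tail to tail, 5.08 kb apart). LAMB1 and LAMB4 read in the same direction 20.3 kb apart and stood on opposite lists. High genes beside one on neither list were COL6A1 (COL6A2, 93.0 kb) and COL4A5 (COL4A6, head to head, 0.346 kb). The leukocyte gene ITGAX was low between ITGAM and ITGAD, both on neither list, and COL6A5 was low beside COL6A6 on neither. COL4A3 with COL4A4 and COL3A1 with COL5A2 were on neither list. The nearest listed gene was on the same list for 10 of 16 high subunits (62.5%) and 11 of 17 low subunits (64.7%), against 76.2% and 72.7% of all rows.

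The 7 members that are not subunits were low but for 1. ITGB1BP1 (hg19 chromosome 2, 9543604 to 9563676), which binds the cytoplasmic tail of ITGB1 and holds the receptor inactive, was high. ITGB1BP3 (chromosome 19, 3933101 to 3942412), an older symbol of the nicotinamide riboside kinase gene NMRK2, was low. The 5 antisense genes were all low. Protein coding genes made up 4479 of the 4531 rows of the high list and 3811 of the 4436 rows of the low list. Rows of other kinds thus lie mostly on the low list, and this count is not particular to these antisense genes. ITGB5-AS1 (chromosome 3, 124500002 to 124506604) lies within ITGB5, which was high. COL4A2-AS1 (chromosome 13, 111154922 to 111160526) and COL4A2-AS2 (chromosome 13, 111108743 to 111120763) lie within COL4A2, which was low. COL18A1-AS1 (chromosome 21, 46839631 to 46844985) and COL18A1-AS2 (chromosome 21, 46827301 to 46829980) are named after COL18A1, which was on neither list. The labels name a TruSeq RNA v2 kit, which does not keep the strand. Strand thus cannot separate reads from bases that an antisense gene shares with the gene it lies within. The same holds for the 1338 bases by which the listed hg19 positions of COL4A1 and COL4A2 overlap.

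The proteins that work with these families stood mostly on the high list or on neither, at 53 of 92 high and 7 low, beside 22.3% high and 18.8% low of all protein coding genes. Adaptors of integrin tails gave 17 of 25 high, with talin (TLN1), kindlin-2 (FERMT2), vinculin (VCL), paxillin (PXN), ILK and PTK2 among them, and 1 low, the blood cell parvin PARVG. FERMT1, the kindlin of epithelia, FERMT3 of blood cells and SRC were on neither list. Of 6 hemidesmosome and tetraspanin partners 5 were high, PLEC and DST, which tie ITGB4 to keratin, and CD151, CD9 and CD81. Basement membrane partners gave HSPG2, AGRN, FRAS1 and NTN4 high and FREM1 and FREM2 low, while the nidogens NID1 and NID2, which bridge laminin and type IV collagen, were on neither list. Other receptors of laminin and collagen gave 7 of 11 high, with DAG1, BCAM, RPSA, CD44, SDC1, SDC4 and MRC2, and SDC2 low. Both discoidin receptors of collagen, DDR1 and DDR2, were on neither list.

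Ligands of integrins outside these families were divided, at 5 of 14 high (VTN, TNC, THBS1, CYR61 and TGFBI) and 3 low (SPP1, EDIL3 and VCAM1, the ligand of the low chain ITGA4). Fibronectin, FN1, the ligand of ITGA5 and ITGB1, was on neither list. Enzymes and chaperones of collagen maturation gave 15 of 26 high and 0 low. They included the prolyl hydroxylase chains P4HA1, P4HA2 and P4HB, the lysyl hydroxylases PLOD1, PLOD2 and PLOD3, and the collagen chaperone SERPINH1. Many of these also serve other secreted proteins. Collagen chains themselves had 5 of 44 high and 12 low, so the enzymes and their substrates were not placed alike. These counts carry no test, and no other gene groups were counted for comparison.

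Markers of cell types were placed on the lists in the same way. Of all protein coding genes 22.3% are high, 18.8% low and 58.8% on neither list. The marker lists are short, and their counts were not tested. Of 9 epithelial markers, KRT8, KRT17 and KRT18 were high, KRT5 was low and 5 (KRT14, KRT19, TP63, EPCAM and CDH1) were on neither list. The epithelial markers were thus divided. KRT8 and KRT18, keratins of simple epithelium, were both high. KRT17 and KRT5, keratins of basal or squamous cells, stood on opposite lists. All 6 blood cell markers and all 3 platelet markers were low. Of 5 endothelial markers 3 were low and 0 high, and of 6 fibroblast markers 1 was low (DPT) and 0 high. The leukocyte integrin chains ITGAL and ITGAX were low like the blood cell markers, while ITGAM, ITGAD, ITGAE and ITGB2 of leukocytes and ITGA2B and ITGB3 of platelets were on neither list.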

How the data were processed

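RNA was measured in 6 libraries, 3 of migrated and 3 of non-migrated SiHa cells. Tools named in the submitters' processing notes, without settings, were Cuffdiff, Cufflinks 2.2.1, TopHat2 and CASAVA 1.8.2, with the build hg19. Per the file headers, the deposited locus table is a Cuffdiff table of estimated counts, which give unscaled fragments per locus, and it was used for depth alone. Its rows give the fraction and a replicate index, which was read as the labels' number. Per the file headers, the 2 deposited lists hold gene symbols with hg19 positions and an empty value column.

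The high list held 4531 symbols and the low list 4419 in 4436 rows. The 4 symbols on both were left out of shares and include no member. Symbols were matched to RefSeq by symbol or by an unambiguous synonym, which gave 4488 high and 4255 low matches. Every matching row is named, and the families, pairs, trimers, collagen molecules, partners and markers were written as lists. 1 further family gene and the molecules that hold it are not reported here. The members and lists were chosen with earlier results of these data known. Promoter windows came from RefSeq (GRCh38.p14) and transcripts and neighbours from GENCODE 29 (GRCh38), and neither was joined to hg19 coordinates. For 22 of the 58 subunit windows the bases after the start lay in the first 50 of a GENCODE transcript on the same strand, and for 0 on the other. The remaining windows had no such match, so this check does not bear out their start sites. Functions were tested on simulated data. Counts carry no test, since the lists have no samples. Python 3.11.15, pandas 2.3.3 and matplotlib 3.10.9 were used. Alternative matches, backgrounds, windows and span measures were tried.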

Additional observations from a re-analysis of the deposited data

How the results depend on the processing

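The count of 17 high members became 16 with the written family list or with subunits alone, and 17 with symbols on both lists counted on each. The count of 23 low members became 17, 17 and 23. The high share of listed members was 42.5%, beside 50.6% of all listed symbols. It was 48.6% beside 54.2% for protein coding genes, 48.5% for subunits alone, and 42.5% beside 54.4% without OR, KRTAP, DEF and LINC names. The median CpG ratio of high members lay above 11.2% of the high list's promoters, and above 25.8% with the start of highest ratio. By GC share it lay above 55.1%, which reverses its side of the list's median. For low members the values were 72.2%, and 73.7% to 80.2% under the alternatives. The median span of low members was 12.7 times and of high members 2.38 times that of their list, and 11.1 and 2.03 times by the mean of log10 span. No alternative was run for the classes, pairs, trimers and collagen molecules, which rest on written lists that another choice of members could change. With the start of highest ratio, CpG-rich members numbered 8 of 14 high and 7 of 12 low. With the bases after the start added to the window the values were 10.7% and 74.2%. The subunits-alone share, that longer window and the choice of start were chosen after seeing the data. No paired analysis was possible because the lists hold no per-sample values and the result comes from no test. Depth could not be tied to any gene named here.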
